A study of Mus musculus with 4 samples.

Results

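The genes described here carry fatty acids into heart muscle, store them and burn them. They were chosen by name from a list of 42 symbols, of which 40 had a row in the authors' deposited table of 36814 genes. The 2 others, Eci1 and Eci2, were found under their older symbols Dci and Peci through RefSeq synonyms and are given apart from the 40. RNA sequencing was done on ventricles of mice at postnatal day 14, with the atria taken off. The mutant group was 2 Hnrnpu mutant hearts, from mice with a conditional Hnrnpu allele bred to the Ckmm-Cre transgene. The control group was 2 hearts labelled wild type. Each group held 1 male and 1 female, and all were on a mixed C57BL/6 and 129 S4 background. The Ckmm promoter drives Cre in cardiac and skeletal muscle, so vessel, connective tissue and blood cells of these ventricles are not targeted by it. The labels do not say whether the 4 samples came from separate litters or which Cre or floxed alleles the controls carried.

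The deposited table gives 1 RPKM value (reads scaled by transcript length and library size) per group and 1 test per gene. No value per animal was analysed here, so a level has no SD or n, and the only measure of error is the one implied by the authors' p-value. A gene was called when the adjusted p in the deposited table was below 0.05. Intervals on the log2 scale are approximate 95% intervals, from the log2 fold change and its p-value, and are given only where p was below 0.5. Among the 28 members that had one, the implied standard error (log2) lay between 0.504 and 0.652, so only large differences could be called, and the smallest called change of any gene was 3.03-fold. The mutant libraries together were about 2.44 times as deep as the control libraries, by the worth of 1 read in small RNA genes, if RPKM was scaled by mapped reads. Hnrnpu itself was listed at 15.2 RPKM in mutant ventricles and 32.7 RPKM in control ventricles, with a log2 fold change of -1.10 in the authors' deposited table (p = 0.0613 and adjusted p = 0.438), and it was therefore lower without a call.

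After birth the mouse heart turns from glucose and lactate to fatty acids as its main fuel. Lipoprotein lipase at the capillary wall frees fatty acids, which are carried into the myocyte, joined to coenzyme A, and then either stored as triglyceride in droplets or passed by carnitine into mitochondria. There each round of beta-oxidation shortens the chain and hands electrons through the electron transfer flavoprotein to the respiratory chain.

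Fatty acid genes were mostly at lower levels in mutant ventricles, but 1 of them was called. Etfb, the beta subunit of the electron transfer flavoprotein, fell to 46.9 RPKM in mutant ventricles, against 168 RPKM in control ventricles. That is 1 of 40 members, or 2.50%, beside 3.51% of all 24454 tested rows and 5.28% of the 11292 rows with a mean of at least 1 RPKM. By direction, 1.48% of all tested rows were called lower and 2.03% higher, and in rows with a mean of at least 1 RPKM the shares were 1.93% and 3.35%. The members' share of calls is therefore near the background. At an unadjusted p below 0.05 there were 5 members, 4 lower (Etfb, Slc27a1, Dgat2 and Acadm) and 1 higher (Pnpla2). These are 13.2% of the 38 members with a mean of at least 1 RPKM, beside 17.0% of rows at that level, of which 7.25% were lower and 9.71% higher.

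Of the 40 members, 24 were lower and 16 higher in mutant ventricles, with a median log2 fold change of -0.39, whereas the median over all tested rows was 0.072. Hadhb is counted here by its own row. With Hadhb and Fabp3 each summed with a near-identical copy described below, 23 were lower and 17 higher, with a median of -0.32. Among the 26 members averaging 10 RPKM or more, 19 were lower (73.1%) and the median was -0.47, and with the copies summed 19 of 27 were lower. Of the 2329 rows at that level, 34.7% were lower and the median was 0.30. These are descriptions of a list chosen with earlier results of these data known, and they carry no test. In bulk ventricle, fewer cells of a type and less RNA per cell cannot be told apart. All 14 cardiomyocyte markers were uncalled, 1 had an unadjusted p below 0.05, 12 were lower in mutant ventricles, and their median log2 fold change was -0.36. The leading markers Actc1, Mb and Tnnt2 were at 4530, 1790 and 1640 RPKM in mutant ventricles and at 2380, 1860 and 1840 RPKM in control ventricles. Myh6, next in level, was at 840 RPKM in mutant and 1660 RPKM in control ventricles. The summed level was 12820 RPKM in mutant ventricles and 12870 RPKM in control ventricles. This near-equal sum rests on Actc1, 1 of the 2 markers that were higher in mutant ventricles. The part of cell composition in the members' median was not tested.

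**Figure D1:**
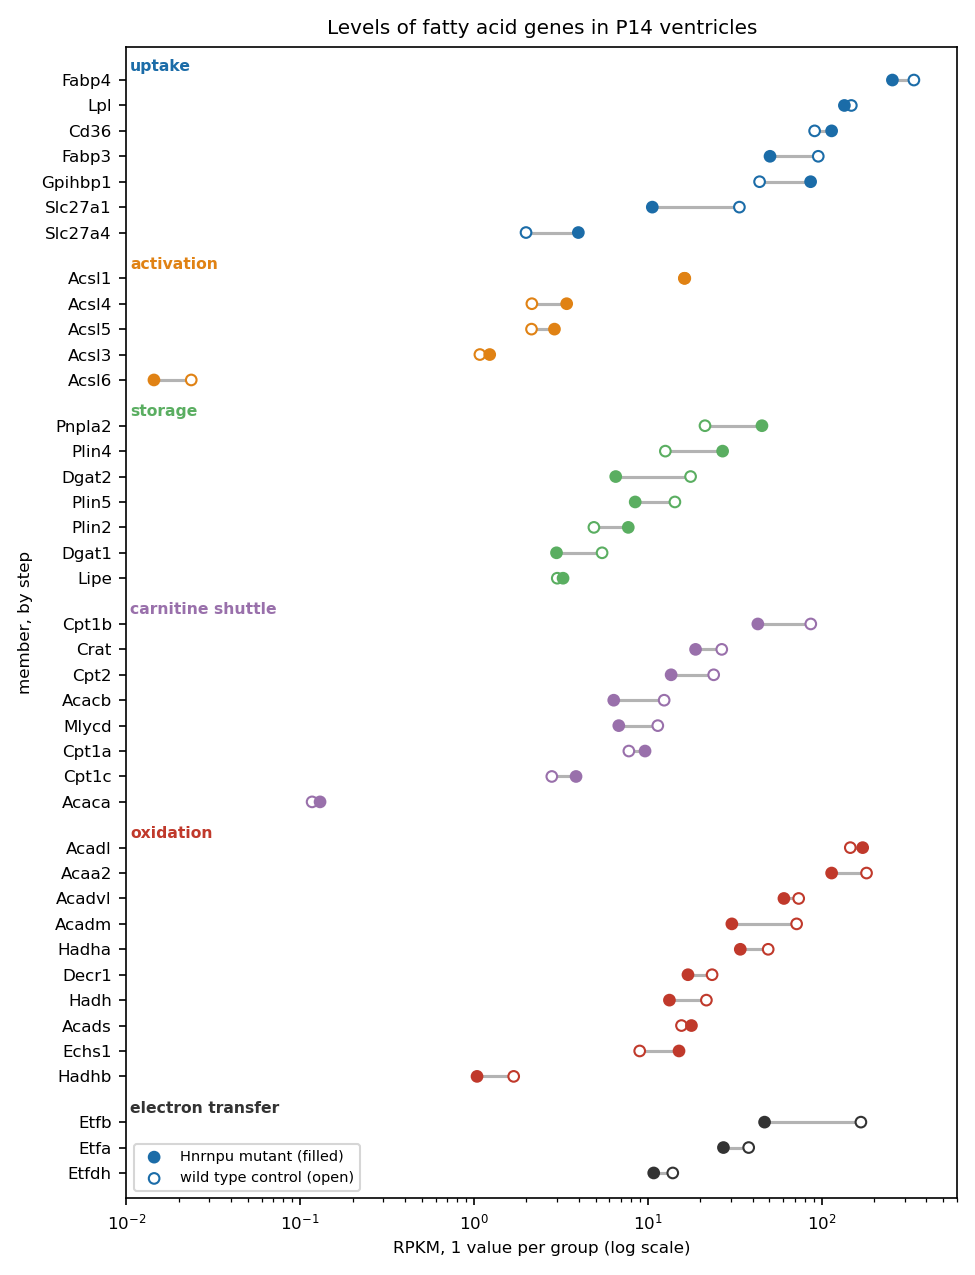
Levels of the 40 members in RPKM on a log axis, grouped by step, with the mutant value as a filled point and the control value as an open point. Etfb spans the widest gap among abundant members, 46.9 RPKM in mutant and 168 RPKM in control ventricles, and the points of Acsl1 coincide at 16.2 RPKM in mutant and 16.3 RPKM in control ventricles.

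**Figure D2:**
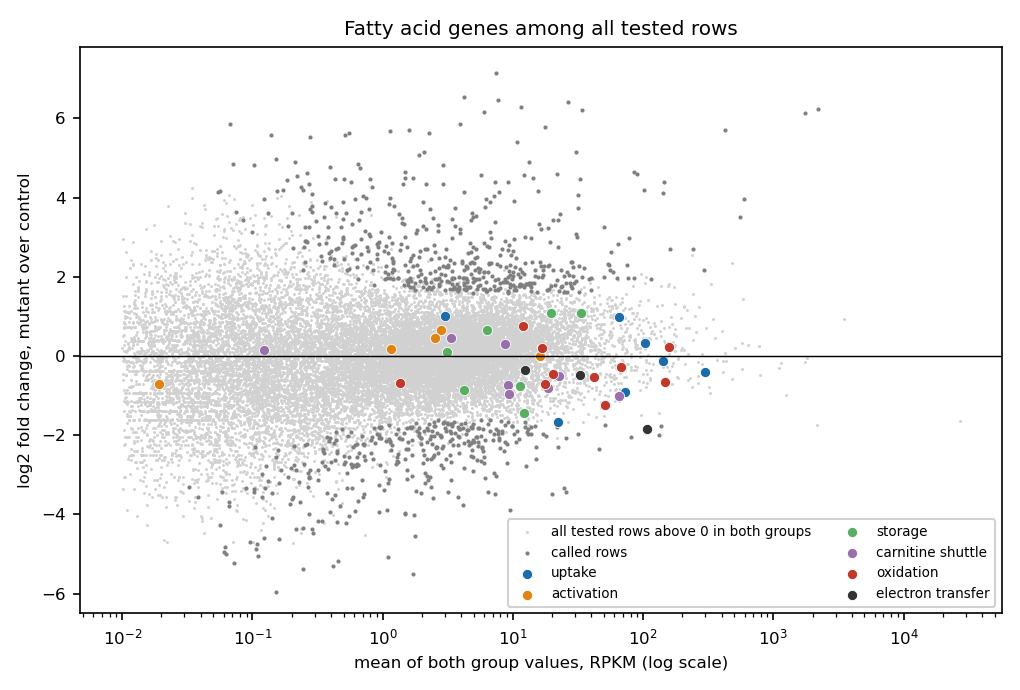
Log2 fold change (mutant over control) against the mean of the group values in RPKM (log axis), for tested rows above 0 in both groups and a mean of at least 0.01 RPKM (light grey, called rows dark grey), with the members coloured by step. Most coloured points right of 10 RPKM lie below the line at 0, where 19 of 26 members were lower in mutant ventricles.

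The level of a gene in this table can hide reads given to a near-identical copy, and long processed copies were found for Hadhb, Fabp3 and Acaca. Hadhb had a second one, Gm9108, at 97.6% identity over 1426 bases and with no row used here. A shorter one of Etfa, Gm15289, aligned over 244 bases at 95.1% identity and was at 1.12 RPKM in mutant and 2.75 RPKM in control ventricles. The coding part of Hadhb and the processed pseudogene Gm13910 were aligned over 1428 bases with 3 differing. In the same way Fabp3 and Fabp3-ps1 shared 402 bases with 3 differing. The sequences are shown because a short read from most of their length would match both members of a pair. Each is 100 bases of the transcript strand (GENCODE M21, build GRCm38), 5′ to 3′, with the differing bases in capitals. Hadhb lies on chromosome 5 (bases 270 to 369 of its transcript) and Gm13910 on chromosome 2, while Fabp3 lies on chromosome 4 (bases 449 to 548) and Fabp3-ps1 on chromosome 10.
Hadhb: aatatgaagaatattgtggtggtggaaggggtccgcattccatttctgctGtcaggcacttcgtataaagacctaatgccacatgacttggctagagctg
Gm13910: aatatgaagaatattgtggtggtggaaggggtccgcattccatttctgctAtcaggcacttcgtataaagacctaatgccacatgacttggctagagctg
Fabp3: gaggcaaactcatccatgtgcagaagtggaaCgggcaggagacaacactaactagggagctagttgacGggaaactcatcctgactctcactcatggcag
Fabp3-ps1: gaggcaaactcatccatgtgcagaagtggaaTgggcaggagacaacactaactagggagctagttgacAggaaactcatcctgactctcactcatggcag

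The Hadhb row held little of the signal. It was listed at 1.04 RPKM in mutant and 1.69 RPKM in control ventricles, while Gm13910 was listed at 83.5 RPKM in mutant and 48.8 RPKM in control ventricles. For comparison, Hadha, whose product joins that of Hadhb in the mitochondrial trifunctional protein, was at 34.0 RPKM in mutant and 49.2 RPKM in control ventricles. In the authors' deposited table the log2 fold change was -0.69 for the Hadhb row (adjusted p = 0.710) and 0.78 for the Gm13910 row (adjusted p = 0.657), so the rows differ in sign and neither was called. Added together by transcript length, the Hadhb and Gm13910 rows gave 1.66-fold more in mutant ventricles, and Gm13910 supplied 98.2% of that sum in mutant and 95.3% in control ventricles. The direction of Hadhb is therefore uncertain.

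Fabp3, the fatty acid binding protein of heart muscle, was listed at 50.4 RPKM in mutant and 95.5 RPKM in control ventricles, with its pseudogene row at 655 RPKM in mutant and 916 RPKM in control ventricles. Both rows were lower in mutant ventricles, and the length-weighted sum gave a log2 fold change of -0.55, against -0.92 for the Fabp3 row in the authors' deposited table (p = 0.0753 and adjusted p = 0.487). Acaca, the acetyl-CoA carboxylase of lipogenic tissues, aligned with the processed pseudogene Gm5182 over 6118 bases at 99.2% identity. Gm5182 had no row used here, and Acaca was listed at 0.130 RPKM in mutant and 0.117 RPKM in control ventricles. How the authors' counting treated reads with several matches is not given in the sources used here.

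Uptake genes had the highest summed level of the 6 steps and lay on both sides of control. Fabp4, a fatty acid binding protein of capillary endothelium and fat, was at 255 RPKM in mutant and 339 RPKM in control ventricles. Lpl, lipoprotein lipase, was at 135 RPKM in mutant and 148 RPKM in control ventricles, and Cd36, the fatty acid translocase, at 114 RPKM in mutant and 91 RPKM in control ventricles. The authors' deposited table gives these 3 log2 fold changes of -0.41, -0.14 and 0.32, with adjusted p-values of 0.978, 1 and 1.

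Transporters of the Slc27a family lay on opposite sides of control, neither with a call. Slc27a1 (FATP1; chromosome 8, 74092826 to 74110607, mm9), a transporter of long-chain fatty acids in muscle, was at 10.6 RPKM in mutant and 33.6 RPKM in control ventricles. The authors' deposited table lists its log2 ratio as -1.67 (95% interval -2.73 to -0.61, p = 0.00208) and its adjusted p as 0.0553, the nearest value outside the threshold among the members. Slc27a4, the related FATP4, was at 3.98 RPKM in mutant and 1.99 RPKM in control ventricles, a log2 fold change of 0.999 in the authors' deposited table (p = 0.0532 and adjusted p = 0.408). Slc27a4 made up 27.3% of the RPKM of this pair in mutant and 5.59% in control ventricles; the difference between the pair was not tested.

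Gpihbp1, which tethers lipoprotein lipase to capillary endothelium, was at 86.3 RPKM in mutant and 43.9 RPKM in control ventricles, with a log2 fold change of 0.98 in the authors' deposited table (95% interval -0.067 to 2.02, adjusted p = 0.457). Beside it, 3 of 16 endothelial markers fell (18.8% called, beside 1.93% of rows at a mean of at least 1 RPKM called lower), 11 of 16 were lower, and their median log2 fold change was -0.42. This list and the other marker lists were drawn up with earlier results of these data known, so their called shares carry no test. The 3 called were Tcf15, Aqp7 and Btnl9, and the other markers, Pecam1 and Cdh5 among them, were not called. Tcf15, a transcription factor of heart capillary endothelium that acts with Meox2 in fatty acid uptake, was at 1.96 RPKM in mutant and 8.84 RPKM in control ventricles (adjusted p = 0.00837 in the authors' deposited table). Meox2 was at 3.33 RPKM in mutant and 8.34 RPKM in control ventricles and was not called (adjusted p = 0.165 in the authors' deposited table). Aqp7, a glycerol channel, fell to 1.52 RPKM in mutant ventricles, against 6.11 RPKM in control ventricles, and Btnl9 fell to 5.59 RPKM in mutant ventricles, against 22.0 RPKM in control ventricles. The endothelial markers of highest level, Eng, Cdh5 and Egfl7, were at 61, 31.8 and 26 RPKM in mutant ventricles and at 39.9, 42.8 and 32.6 RPKM in control ventricles. Higher in mutant ventricles without a call were Eng, Cldn5, Pecam1, Flt1 and Rgcc, of which Cldn5 was at 36.6 RPKM in mutant and 21.3 RPKM in control ventricles and Pecam1 at 32.4 RPKM in mutant and 20.0 RPKM in control ventricles. The summed level of all 16 was 282.7 RPKM in mutant and 294.5 RPKM in control ventricles. Their part in the uptake values was not tested.

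Activation to acyl-CoA showed no call, and none of its 5 members had an unadjusted p below 0.05. Acsl1, the main long-chain acyl-CoA synthetase of the heart, had the smallest difference of any member, at 16.2 RPKM in mutant and 16.3 RPKM in control ventricles (log2 fold change of -0.0076, p = 1 in the authors' deposited table). Acsl4, which prefers arachidonic acid, was at 3.41 RPKM in mutant and 2.15 RPKM in control ventricles, with a log2 fold change of 0.67 in the authors' deposited table (95% interval -0.35 to 1.68, adjusted p = 0.722). Acsl5 was at 2.90 and Acsl3 at 1.23 RPKM in mutant ventricles, against 2.14 and 1.08 RPKM in control ventricles. Acsl6, an isoform of brain and blood cells, was near the bottom of the range, at 0.0144 RPKM in mutant and 0.0236 RPKM in control ventricles. Acsl1 made up 68.2% of the summed RPKM of the family in mutant and 75.1% in control ventricles.

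Among storage genes, those for triglyceride synthesis were lower and the lipase Pnpla2 was higher, none with a call. Dgat2, which adds the last acyl chain to triglyceride, was at 6.53 RPKM in mutant and 17.6 RPKM in control ventricles, with a log2 fold change of -1.43 in the authors' deposited table (95% interval -2.44 to -0.42, p = 0.00547, adjusted p = 0.107). Dgat1, the other enzyme of this step, was at 2.98 RPKM in mutant and 5.45 RPKM in control ventricles (adjusted p = 0.524 in the authors' deposited table). Pnpla2, adipose triglyceride lipase, was at 45.3 RPKM in mutant and 21.3 RPKM in control ventricles, a log2 fold change of 1.09 in the authors' deposited table (95% interval 0.014 to 2.17, p = 0.0470, adjusted p = 0.385). Lipe, hormone-sensitive lipase, was at 3.25 RPKM in mutant and 3.01 RPKM in control ventricles.

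The perilipins, which coat lipid droplets, also differed in direction. Plin4 was at 26.9 RPKM in mutant and 12.6 RPKM in control ventricles (p = 0.0545, adjusted p = 0.413 in the authors' deposited table). Plin5, the perilipin of oxidative tissues and a neighbour of Plin4 on chromosome 17, was at 8.45 RPKM in mutant and 14.3 RPKM in control ventricles (adjusted p = 0.608 in the authors' deposited table). Plin2, the perilipin found in most tissues, was at 7.71 RPKM in mutant and 4.89 RPKM in control ventricles. In the authors' deposited table the log2 fold changes of Plin4, Plin5 and Plin2 were 1.09, -0.77 and 0.66. Plin4 made up 62.5% of the summed RPKM of these 3 in mutant ventricles and 39.6% in control ventricles, and Plin5 19.6% in mutant and 45.0% in control ventricles. No test of this difference in composition was possible with 1 value per group.

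Several storage genes and Fabp4 are strongly expressed in fat, so adipocyte markers were read beside them. The defining markers Adipoq and Lep were at 0.0065 and 0.00462 RPKM in mutant and 0.0124 and 0.0051 RPKM in control ventricles, and Plin1 was at 0.00468 RPKM in mutant and listed at 0 in control ventricles. Retn and Cfd were listed at 0 in both groups. Of the 11 markers, none was called and 1 had an unadjusted p below 0.05, and 10.2 of the 10.37 RPKM summed over them in mutant ventricles came from Cidea, which was at 9.81 RPKM in control ventricles. Car3 was next at 0.0775 RPKM in mutant and 0.330 RPKM in control ventricles, and Adig was at 0.0494 RPKM in mutant and listed at 0 in control ventricles. Macrophages also hold Plin2 and Lpl, and all 13 macrophage markers were higher in mutant ventricles, with a median log2 fold change of 1.05. Of all 24454 tested rows, 12923 were higher. Lyz2 and Lgals3 were called (15.4% of the 13), beside 2.03% of all tested rows called higher. Both were among the 11 markers with a mean of at least 1 RPKM, where 3.35% of rows were called higher. Lyz2 was at 90.5 RPKM in mutant and 18.4 RPKM in control ventricles and Lgals3 at 3.85 RPKM in mutant and 0.420 RPKM in control ventricles, while C1qb and C1qa were at 42.4 and 40.1 RPKM in mutant and 16.1 and 15.7 RPKM in control ventricles without a call. The summed level was 229.8 RPKM in mutant and 79.57 RPKM in control ventricles. The part of macrophages in the values of Plin2 and Lpl was not tested.

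**Figure D3:**
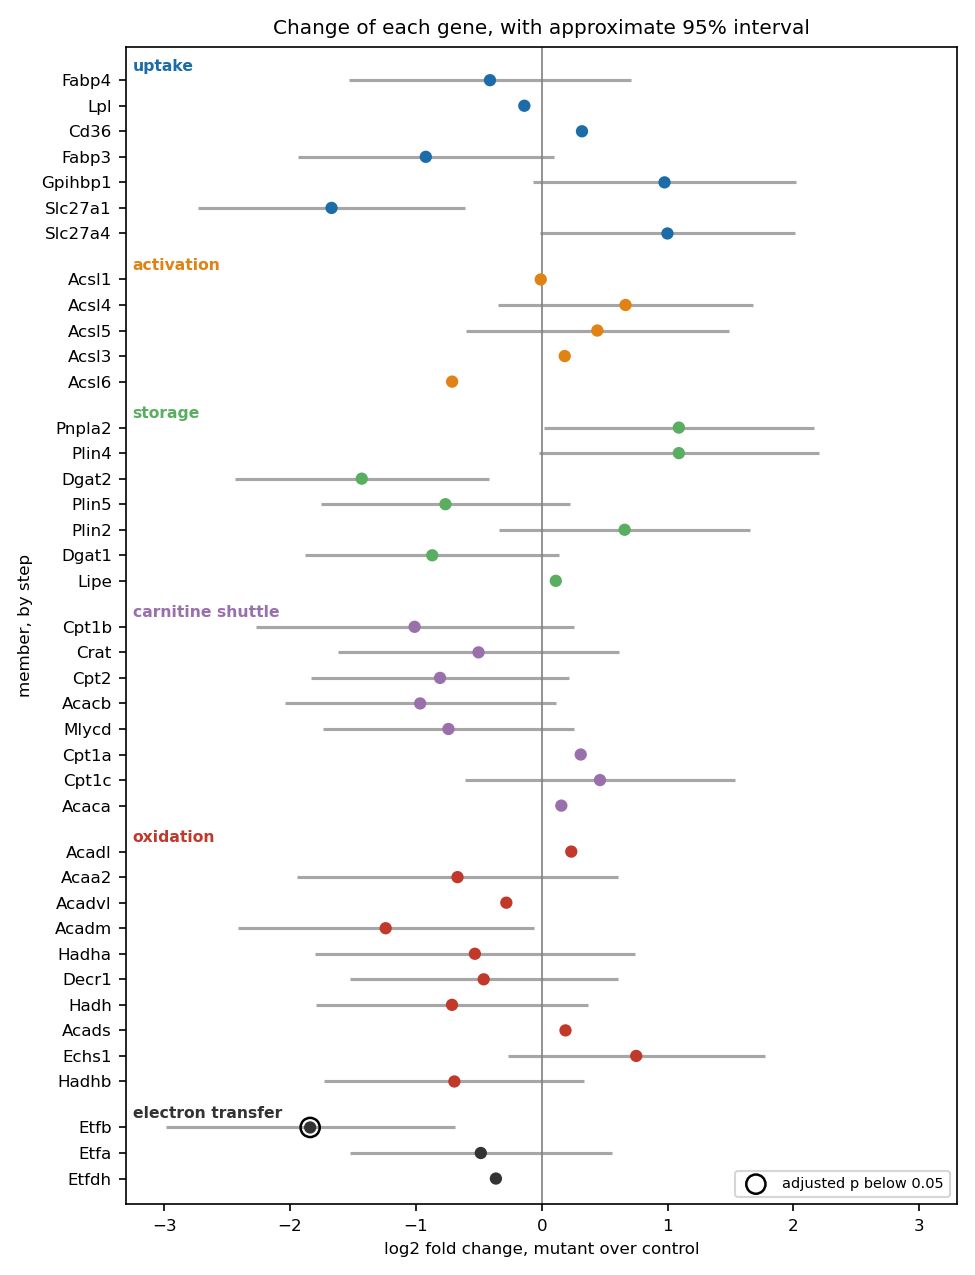
Log2 fold change (mutant over control) of each member, grouped by step, with the approximate 95% interval as a grey line where p was below 0.5. Etfb, circled, is the called member, and the intervals of Slc27a1, Dgat2, Acadm and Pnpla2 also leave out 0.

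The carnitine shuttle moves long-chain acyl groups into mitochondria, and its main heart genes were lower in mutant ventricles without a call, and none of its 8 members had an unadjusted p below 0.05. Cpt1b, the muscle isoform of carnitine palmitoyltransferase 1 and the gate of the pathway, was at 42.9 RPKM in mutant and 86.5 RPKM in control ventricles. The authors' deposited table lists its log2 ratio as -1.01 (95% interval -2.27 to 0.25, adjusted p = 0.586). The Chkb row, on the same strand, spans the whole of the Cpt1b row, so reads of the shared part cannot be told apart. Chkb was at 30.9 RPKM in mutant and 60.4 RPKM in control ventricles, and this may not be a separate level. Cpt1b also shares 1841 bases at 100% identity with Gm44502, which had no row used here. The matching transcript of Gm44502 is typed as nonsense-mediated decay, and whether it comes from the same locus was not read. Cpt1a, the liver isoform that is also found in the fetal heart, was at 9.63 RPKM in mutant and 7.77 RPKM in control ventricles, and Cpt1c, the isoform of brain, at 3.86 RPKM in mutant and 2.80 RPKM in control ventricles. Their log2 fold changes in the authors' deposited table were 0.31 (adjusted p = 1.0) and 0.46 (adjusted p = 0.934). Cpt1b made up 76.1% of summed Cpt1 RPKM in mutant and 89.1% in control ventricles, and Cpt1a 17.1% in mutant and 8.0% in control ventricles.

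Cpt2, which returns the acyl group to coenzyme A inside the mitochondrion, was at 13.6 RPKM in mutant and 23.9 RPKM in control ventricles (p = 0.122, adjusted p = 0.596 in the authors' deposited table). Crat, carnitine acetyltransferase, was at 18.8 RPKM in mutant and 26.6 RPKM in control ventricles. Acacb makes the malonyl-CoA that inhibits Cpt1, and Mlycd breaks it down. Acacb was at 6.36 RPKM in mutant and 12.4 RPKM in control ventricles, and Mlycd at 6.8 RPKM in mutant and 11.4 RPKM in control ventricles. The maker and the remover of the inhibitor were thus both lower, with log2 fold changes of -0.97 and -0.74 in the authors' deposited table, neither called (adjusted p = 0.494 and 0.642).

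Of the 10 oxidation members with a row, 7 were lower and 3 higher by their own rows (6 lower and 4 higher with Hadhb summed with Gm13910), none was called, and 1 had an unadjusted p below 0.05. Acadm, medium-chain acyl-CoA dehydrogenase, stood farthest from control among them, at 30.4 RPKM in mutant and 71.7 RPKM in control ventricles. The authors' deposited table lists its log2 ratio as -1.24 (95% interval -2.42 to -0.064, p = 0.0387, adjusted p = 0.352). The dehydrogenases for other chain lengths were nearer to control. Acadl, for long chains, was at 172 RPKM in mutant and 146 RPKM in control ventricles. Acadvl, for very long chains, was at 60.6 RPKM in mutant and 73.7 RPKM in control ventricles. Acads, for short chains, was at 17.8 RPKM in mutant and 15.6 RPKM in control ventricles. The authors' deposited table gives log2 fold changes of 0.23 for Acadl, -0.28 for Acadvl and 0.19 for Acads, each with an adjusted p of 1. Acadm made up 10.8% of the summed RPKM of these 4 in mutant and 23.4% in control ventricles, and Acadl 61.3% in mutant and 47.6% in control ventricles. Whether Acadm differed from the others was not tested.

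The later enzymes of the spiral were mostly lower. Acaa2, a mitochondrial thiolase, was at 114 RPKM in mutant and 181 RPKM in control ventricles (adjusted p = 0.853 in the authors' deposited table). Hadh, which oxidises short-chain hydroxyacyl-CoA, was at 13.3 RPKM in mutant and 21.7 RPKM in control ventricles, and Decr1, needed for unsaturated chains, at 17.0 RPKM in mutant and 23.4 RPKM in control ventricles. Echs1, the short-chain enoyl-CoA hydratase, was the exception with 15.1 RPKM in mutant and 8.97 RPKM in control ventricles (adjusted p = 0.651 in the authors' deposited table). The enoyl-CoA isomerases Eci1 and Eci2, read under Dci and Peci, were lower too. Dci was at 27.1 RPKM in mutant and 67.1 RPKM in control ventricles, with a log2 fold change of -1.31 in the authors' deposited table (95% interval -2.35 to -0.27, p = 0.0138, adjusted p = 0.190). Peci was at 9.99 RPKM in mutant and 17.8 RPKM in control ventricles (adjusted p = 0.563 in the authors' deposited table).

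All 3 genes of electron transfer were lower. For Etfb (chromosome 7, 50699478 to 50713170, mm9) the authors' deposited table lists a log2 ratio of -1.84 (95% interval -2.99 to -0.69, p = 0.0017) and an adjusted p of 0.0491, just inside the threshold. Etfb transcripts share 626 bases at 99.7% identity with Gm45233, which had no row used here. The matching transcript of Gm45233 is typed as nonsense-mediated decay, and whether it comes from the same locus was not read. Etfa, the partner subunit, was at 27.2 RPKM in mutant and 38.0 RPKM in control ventricles (log2 fold change of -0.48, adjusted p = 0.906 in the authors' deposited table). Etfdh, the oxidoreductase that passes the electrons to ubiquinone, was at 10.8 RPKM in mutant and 13.9 RPKM in control ventricles. Etfb and Etfa code for subunits that pair 1 to 1; Etfb was above Etfa in both groups, by more in control ventricles.

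**Figure D4:**
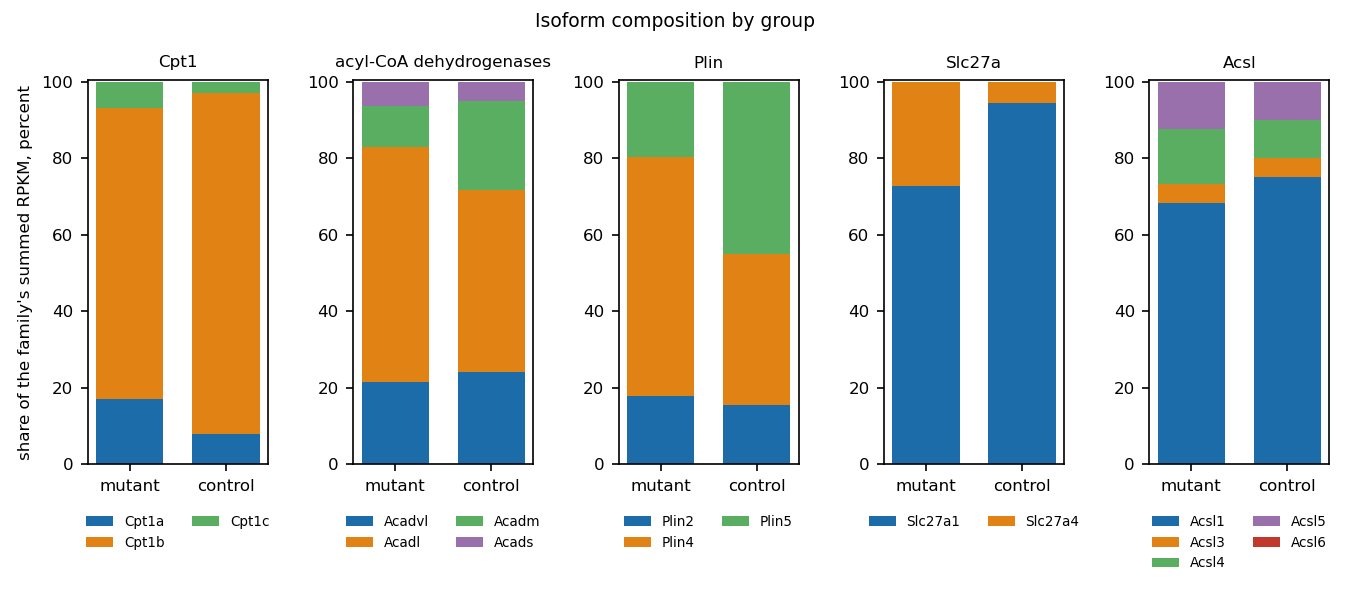
Share of each family's summed RPKM, in percent, held by its members, with mutant left and control right for 5 families. Cpt1b holds 76.1% in mutant and 89.1% in control ventricles, Acadm 10.8% in mutant and 23.4% in control, and Plin5 19.6% in mutant and 45.0% in control; Acsl6, at 0.0606% in mutant and 0.109% in control, is too thin to see.

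The 300 bases around the transcription start (250 before and 50 after) were read for members in the RefSeq promoter table (GRCm38.p6), which held 40 windows of 33 members. The windows of Etfb, Acadm and Pnpla2 are shown because these members had an unadjusted p below 0.05 and a single window. Of the other members at that p, Slc27a1 had 3 windows, and no window of Dgat2 was used here. Capitals mark the nuclear receptor site AGGTCA on either strand, the core bound by PPAR and ERR factors that drive fatty acid genes. Etfb is at chr7:43443822-43444121 on the plus strand, Acadm at chr3:153944594-153944893 on the minus strand and Pnpla2 at chr7:141454938-141455237 on the plus strand.
Etfb: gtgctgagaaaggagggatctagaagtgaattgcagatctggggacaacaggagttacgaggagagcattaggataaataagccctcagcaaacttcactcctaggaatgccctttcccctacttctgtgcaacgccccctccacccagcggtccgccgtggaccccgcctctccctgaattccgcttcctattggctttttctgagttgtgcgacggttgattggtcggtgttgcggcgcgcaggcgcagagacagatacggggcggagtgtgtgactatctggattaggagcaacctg
Acadm: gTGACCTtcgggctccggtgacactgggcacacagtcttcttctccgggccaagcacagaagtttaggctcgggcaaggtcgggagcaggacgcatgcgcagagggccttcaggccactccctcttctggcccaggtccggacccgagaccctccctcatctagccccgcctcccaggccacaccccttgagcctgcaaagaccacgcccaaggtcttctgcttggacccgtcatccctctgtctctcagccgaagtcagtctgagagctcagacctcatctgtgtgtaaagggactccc
Pnpla2: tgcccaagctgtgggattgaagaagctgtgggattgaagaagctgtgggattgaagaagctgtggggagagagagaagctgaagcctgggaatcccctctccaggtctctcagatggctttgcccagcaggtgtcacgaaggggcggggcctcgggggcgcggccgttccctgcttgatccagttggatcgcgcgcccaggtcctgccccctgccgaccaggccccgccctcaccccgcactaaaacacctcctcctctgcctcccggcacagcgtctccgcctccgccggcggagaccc

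Acadm held 1 such site and Etfb and Pnpla2 held none, as did the 3 windows of Slc27a1. AGGTCA on either strand was found in 11 of the 40 member windows (27.5%) and in 16.3% of all 32851 windows. Members with it were Acacb, Acadm, Acadvl, Acsl6, Cd36, Cpt1a, Cpt1c, Echs1, Plin2 and Plin5, which lie on both sides of control. The direct repeat AGGTCANAGGTCA, to which PPAR and RXR bind as a pair, was in no member window and in 0.0396% of all windows. As an exact match it was in 13 of 32851 windows, too rare for its absence from 40 windows to be informative. TCAAGGTCA, the ERR element, which contains AGGTCA, was in 1 member window (Acsl6) and 0.423% of all. CACGTG, the E-box, was in 3 member windows (Lipe, Plin2 and Slc27a1; 7.5%) and 7.15% of all. TGATGCAA, a composite of C/EBP and ATF sites, was in the window of Echs1 and in 0.895% of all.

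Other genes of the pathway and of related metabolism, in lists drawn up with earlier results known, gave 6 calls among 105 tested genes. Of these calls, 4 were lower and 2 higher. The 6 calls are 5.71% of the 105 genes, beside 3.51% of all 24454 tested rows. Among the 86 of these genes averaging 1 RPKM or more, 5 were called, beside 5.28% of the 11292 rows at that level. Beside the called genes, Slc22a5, Slc25a20, Ppara, Pdk4, Angptl4, Oxct1, Acat1, Scd1 and Fads1 are named as well. Bbox1, Tmlhe, Pparg, Rxra, Mlxipl and Scd4 are also named. So are the cardiomyocyte marker Myh6 and the endothelial markers Meox2, Cldn5, Pecam1, Flt1 and Rgcc. All of these were chosen after their values were seen. Fitm1, which helps form lipid droplets in muscle, fell to 15.1 RPKM in mutant ventricles, against 76.3 RPKM in control ventricles, with a log2 fold change of -2.34 in the authors' deposited table (adjusted p = 0.00103). It was the 1 call, lower, among 20 other triglyceride and droplet genes, whose median was -0.10. Aldh9a1, an enzyme of carnitine synthesis, fell to 4.52 RPKM in mutant ventricles, against 15.3 RPKM in control ventricles (log2 fold change of -1.76, adjusted p = 0.0276 in the authors' deposited table), the 1 call among 14 other tested genes of uptake and carnitine supply (median -0.37). Bbox1, also of carnitine synthesis, was at 0.0458 RPKM in mutant and 0.0215 RPKM in control ventricles. Tmlhe, a further enzyme of that synthesis, was listed at 0 in both groups. In the same list Slc22a5, the carnitine transporter, was at 1.84 RPKM in mutant and 4.83 RPKM in control ventricles (p = 0.00935, adjusted p = 0.152 in the authors' deposited table), and Slc25a20, which carries acylcarnitine across the inner membrane, at 18.1 RPKM in mutant and 27.3 RPKM in control ventricles.

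Among 17 PPAR-responsive heart genes and their regulators, 10 were lower and 7 higher in mutant ventricles (median -0.27). Of the 17, 2 were called lower (11.8%) and none higher, beside 1.48% of all tested rows called lower. Both were among the 16 with a mean of at least 1 RPKM, where 1.93% of rows were called lower. Ppargc1b, a coactivator of mitochondrial genes, fell to 3.18 RPKM in mutant ventricles, against 14.8 RPKM in control ventricles, and Ucp3, a mitochondrial carrier, fell to 2.28 RPKM in mutant ventricles, against 9.16 RPKM in control ventricles (adjusted p = 0.00225 and 0.0083 in the authors' deposited table). Ppara, the receptor for fatty acids that leads this program in the heart, was at 1.18 RPKM in mutant and 3.31 RPKM in control ventricles (p = 0.00546, adjusted p = 0.107 in the authors' deposited table). Pparg and Rxra went the other way without a call. They were at 3.12 and 5.44 RPKM in mutant ventricles and at 1.64 and 2.81 RPKM in control ventricles. Pdk4 and Angptl4, which respond to PPAR in the heart, were at 29.9 and 5.69 RPKM in mutant ventricles and at 36.1 and 3.07 RPKM in control ventricles, with no call.

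The list of 21 other mitochondrial oxidation genes had a median of -0.022 and 1 call, higher. This list is mixed, so its median does not describe fatty acid oxidation alone. It also holds genes of branched-chain amino acid and propionate breakdown (such as Ivd and Pcca), ketone body genes, and the peroxisomal Nudt7 and Nudt19. The called gene is given next. That gene was Bdh1, of ketone body oxidation, at 0.464 RPKM in mutant and 0.0256 RPKM in control ventricles (adjusted p = 0.000956 in the authors' deposited table), under the level minimum of 1 RPKM. Oxct1 and Acat1, which also act in ketone body oxidation, were at 78.5 and 27.2 RPKM in mutant ventricles and at 72.3 and 34.6 RPKM in control ventricles. The 17 peroxisomal genes had a median of -0.25, no call and no unadjusted p below 0.05. In fatty acid synthesis and desaturation, 12 of 18 genes were higher (median 0.50) and 1 rose: Fads3, a desaturase family member, was at 28.9 RPKM in mutant and 5.97 RPKM in control ventricles (adjusted p = 0.00161 in the authors' deposited table). Scd1 and Fads1, also desaturases, were at 2.37 and 8.33 RPKM in mutant ventricles and at 0.813 and 3.07 RPKM in control ventricles, with adjusted p-values of 0.0930 and 0.0905 in the authors' deposited table. The other 6 of the 18 were lower, none with a call. Among them, Mlxipl and Scd4 were at 2.89 and 2.45 RPKM in mutant ventricles and at 6.68 and 5.09 RPKM in control ventricles. Of all 24454 tested rows, 12923 were higher in mutant ventricles.

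Markers of connective tissue and vessel walls were read for the same samples. The 10 fibroblast markers gave no call, 3 unadjusted p-values below 0.05 and a median of 0.92. Their most abundant members Dcn, Col3a1 and Col1a1 were at 250, 185 and 218 RPKM in mutant ventricles and at 278, 146 and 110 RPKM in control ventricles. Of 9 mural cell markers (median 0.027), Tagln was called and rose to 42.6 RPKM in mutant ventricles, against 9.76 RPKM in control ventricles. That is 11.1%, beside 3.35% of rows with a mean of at least 1 RPKM called higher. Acta2 was at 802 RPKM in mutant and 158 RPKM in control ventricles. Rgs5 was at 57.9 RPKM in mutant and 76.6 RPKM in control ventricles, and neither was called. The part of these cells in the members' values was not tested.

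**Figure D5:**
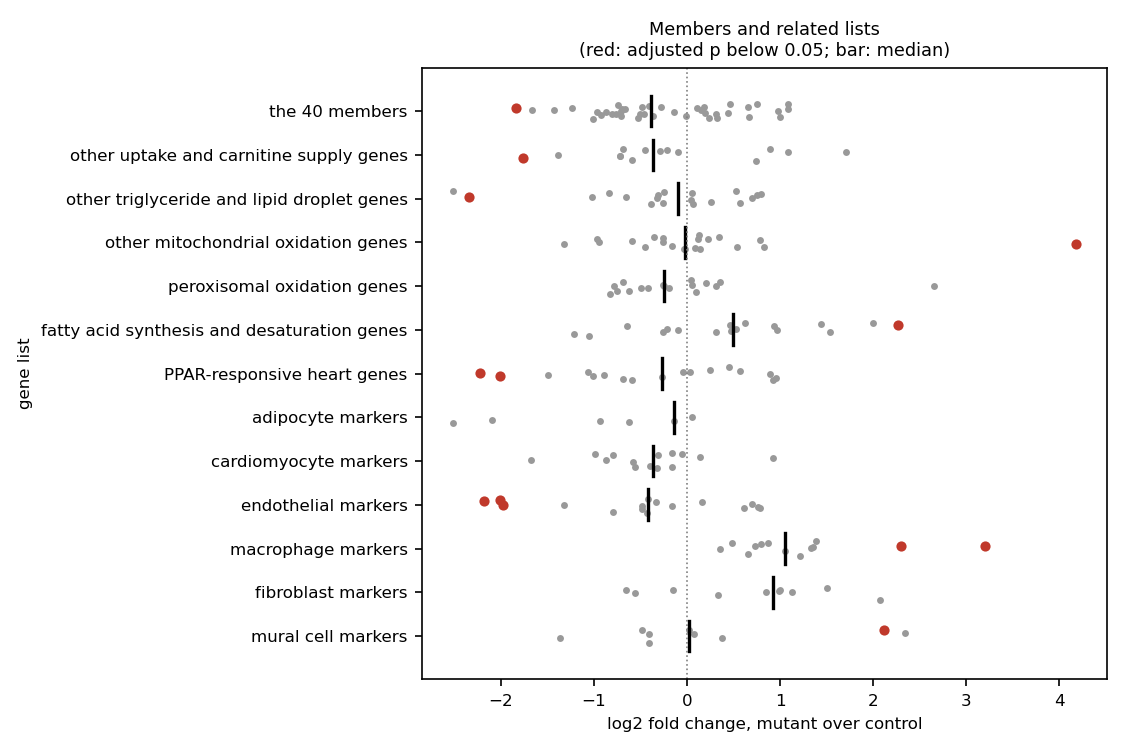
Log2 fold change (mutant over control) of each gene in the 40 members, 6 lists of related genes and 6 lists of cell type markers, with called genes in red and the median as a bar; genes listed at 0 in 1 group are not drawn but count in the median, and those at 0 in both groups are in neither. The members and the list of other uptake and carnitine supply genes centre below 0, at -0.39 and -0.37. Endothelial and cardiomyocyte markers do so too, at -0.42 and -0.36, as do several other lists. Macrophage and fibroblast markers centre at 1.05 and 0.92.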

How the data were processed

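RNA was sequenced from 4 ventricle samples, 2 per group. Bowtie 0.12.9, DESeq (no version) and build mm9 are listed, without their roles, per the submitters' processing notes. For the annotation, counter and strand setting the answer is not given in the sources used here. The deposited table, per the file headers, holds 1 RPKM value per group, scaled by the authors. The fold (ratio of mutant over control), its log2 value and the p-value with its adjusted p-value were also made by the authors and are deposited in that table. Over the 10320 rows where neither group was under 1 RPKM, the RPKM ratio and the deposited fold were within 0.971% of each other. Over all 24454 tested rows, a recomputed adjusted p-value was within 0.593% of the deposited one. No model over samples could be fitted.

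Members were matched by symbol. Members and lists were chosen with earlier results of these data known. All listed members are named with levels; statistics follow for those with the smallest p-value, the highest level or a place in a named family, and outside the members for called genes and the 3 highest markers of each list. Approximate 95% intervals took the standard error as the log2 fold change over the normal score of the p-value, and the script was tested on simulated data. Copies were found with BLAST 2.17.0 among GENCODE M21 transcripts (at least 95% identity over 200 bases). Of the members, 14 overlapped another row, 11 of them on the other strand. Python 3.11.15 with pandas 2.3.3 and scipy 1.17.1 was used.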

Additional observations from a re-analysis of the deposited data

How the results depend on the processing

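The count of called members was 1. It was 2 at an adjusted p below 0.1, where 4.92% of tested rows passed, and 2 when the p-values were adjusted over rows with a mean of at least 1 RPKM alone (6.31%). It was 0 at an adjusted p below 0.01 (2.03%) and 0 when a change of at least 4-fold was also asked for (2.56%). The members' median log2 fold change of -0.39 stayed between -0.47 and -0.31 under the other level minimums, centring and pseudocount tried. With Eci1 and Eci2, an alternative chosen after seeing the data, it was -0.44, and without Hadhb, Fabp3 and Acaca, also chosen after seeing the data, -0.36; with Hadhb and Fabp3 summed with their copies, likewise chosen later, it was -0.32. Of the 6 other pathway genes called, Bdh1 was lost when adjusting over rows averaging 1 RPKM or more, Aldh9a1 at an adjusted p below 0.01 or at least 4-fold, and Fads1 and Scd1 were gained at 0.1. Of the 6 markers called, Btnl9 was lost at 0.01 or 4-fold, and Tcf21 was gained at 0.1 or over rows averaging 1 RPKM or more. The 49 ribosomal protein genes had a median of 0.22, and centring on it turned the sign of Acsl3, Lipe, Acaca and Acads, none of them called; adding Gm13910 turned that of Hadhb, and the cause was not tested. No paired analysis was possible because the deposited table holds 1 value per group, and for the same reason leaving out each replicate was not run. With 2 samples a group and no value per sample, no change under 3.03-fold was called. Some larger changes were not called either, such as Acta2 at 5.06-fold (adjusted p = 0.171 in the authors' deposited table). A member without a call is therefore not shown to be unchanged.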

Other observations

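The balance of the pathway by step, as summed RPKM of its members, differed between steps. Electron transfer summed to 84.9 RPKM in mutant and 219.9 RPKM in control ventricles (ratio 0.386), and the carnitine shuttle to 102.1 RPKM in mutant and 171.5 RPKM in control ventricles (ratio 0.595). Oxidation summed to 475.2 RPKM in mutant and 593 RPKM in control ventricles (ratio 0.801) and uptake to 655.3 RPKM in mutant and 753 RPKM in control ventricles (ratio 0.87). Activation (23.75 RPKM in mutant, 21.69 RPKM in control, ratio 1.09) and storage (101.1 RPKM in mutant, 79.15 RPKM in control, ratio 1.28) were above control. The storage sum includes the lipases Pnpla2 and Lipe, and Pnpla2 alone was at 45.3 RPKM in mutant and 21.3 RPKM in control ventricles. Dgat1 and Dgat2 together came to 9.51 RPKM in mutant and 23.05 RPKM in control ventricles. Of the 7 storage members, 3 were lower and 4 higher. With Hadhb and Fabp3 summed with their near-identical copies, uptake came to 975.2 RPKM in mutant and 1200 RPKM in control ventricles (ratio 0.812) and oxidation to 533.5 RPKM in mutant and 627 RPKM in control ventricles (ratio 0.851), so the order of these 2 steps turned. These sums follow their most abundant genes, carry no error and were not tested.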
